A study of Mus musculus musculus x Mus musculus castaneus with 8 samples.

Results

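Mouse fibroblasts were given 2 drugs singly and together, and each gene was tested for a combined response that differed from what the single responses add up to. RNA was sequenced in 8 libraries, 2 in each of 4 groups, and all 8 of the series' 8 libraries entered every comparison. Of the 24421 genes listed, 12643 had enough reads to be tested. All groups were tail fibroblasts of female F1 hybrids, a cross of Mus musculus musculus with castaneus, whose parental alleles (mus and cas) can be told apart in reads that cover a sequence difference. The untreated group had DMSO alone, and the treated groups had VX680, 5azadC (5-aza-2'-deoxycytidine) or both. Cells grew for 72 h on 15 cm plates, the drugs were given 24 h into that time, and DMSO kept the added volume equal. The labels state no dose, no animal age, and nothing on whether the 2 libraries of a group came from separate animals or cultures. The p-values therefore measure only the spread between these libraries, which may be technical.

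5azadC is a cytidine analogue that enters newly made DNA and traps the DNA methyltransferases, so that methylation is lost as cells divide. It is known for waking methylated germline genes and for raising interferon-stimulated genes. VX680 inhibits the Aurora kinases, which run chromosome segregation and cytokinesis. Cells that divide without Aurora activity tend to become polyploid, and the p53 pathway is a known brake on such cells. The series concerns reactivation of the inactive X chromosome, for which the drugs were combined.

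The interaction of a gene was its log2 change with both drugs minus its log2 changes with 5azadC alone and with VX680 alone, each against untreated. An interaction of 0 means that the fold changes multiply. A positive value means that the level with both drugs lay above that product, and a negative value that it lay below. Levels are given in CPM, read counts scaled to a common library total, with replicate 1 before replicate 2. A gene was called when its Benjamini-Hochberg adjusted p in edgeR's quasi-likelihood test was under 0.05, and interactions are given ± SE with n = 2 libraries in every group. Each single-drug change and the interaction share the untreated libraries, so they are set side by side and not correlated.

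The libraries held between 6908503 and 11169532 reads in genes. Replicates stood furthest apart in the 5azadC group, where 409 genes differed at least 2-fold between the libraries, against 105 to 168 in the other groups. The fibroblast markers listed summed to 31820 and 36010 CPM untreated, 18720 and 22930 with 5azadC, 13840 and 14310 with VX680, and 11720 and 11420 with both, and the part of this fall in the other results was not tested. By contrast, keratinocyte markers summed to between 1.36 and 3.08 CPM and skeletal muscle markers to between 1.51 and 4.08 CPM. Leukocyte markers summed to between 16.3 and 26.2 CPM, with Cd3e listed at 0. The fibroblast sum includes the collagen genes Col1a1, Col1a2 and Col3a1. Of 11 fibroblast markers tested, 6 fell with 5azadC, 8 with VX680 and 9 with both (all genes: 19.6%, 22.4% and 27.3%). In each treated group 2 markers rose, Thy1 among them (all genes: 22.6%, 23.8% and 28.4%). In such bulk RNA, a summed level cannot tell apart fewer cells of a type, less RNA per cell and changes in single marker genes.

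Departures from the product of the single responses were frequent and ran mostly towards a smaller combined response. Of 12643 genes, 1967 (15.6%) were called: 626 (4.95%) with a positive interaction and 1341 (10.6%) with a negative one. Among the called genes, 238 positive and 536 negative interactions reached 2-fold, and the median sizes were 0.83 and 0.85 on the log2 scale. The median over all genes tested was −0.03. Leaving out 1 library moved these counts strongly. Without VX680 replicate 1 there were 233 positive and 715 negative calls, and without VX680 replicate 2 there were 273 and 829. Leaving out combination replicate 1 gave 274 and 792, and combination replicate 2 gave 281 and 774. Without untreated replicate 1 there were 383 and 846 calls, and without untreated replicate 2 there were 417 positive calls. Without 5azadC replicate 2 positive calls rose to 1053. In all 14 alternatives on the log2 scale, 160 of the positive and 600 of the negative calls were made again.

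**Figure D1:**
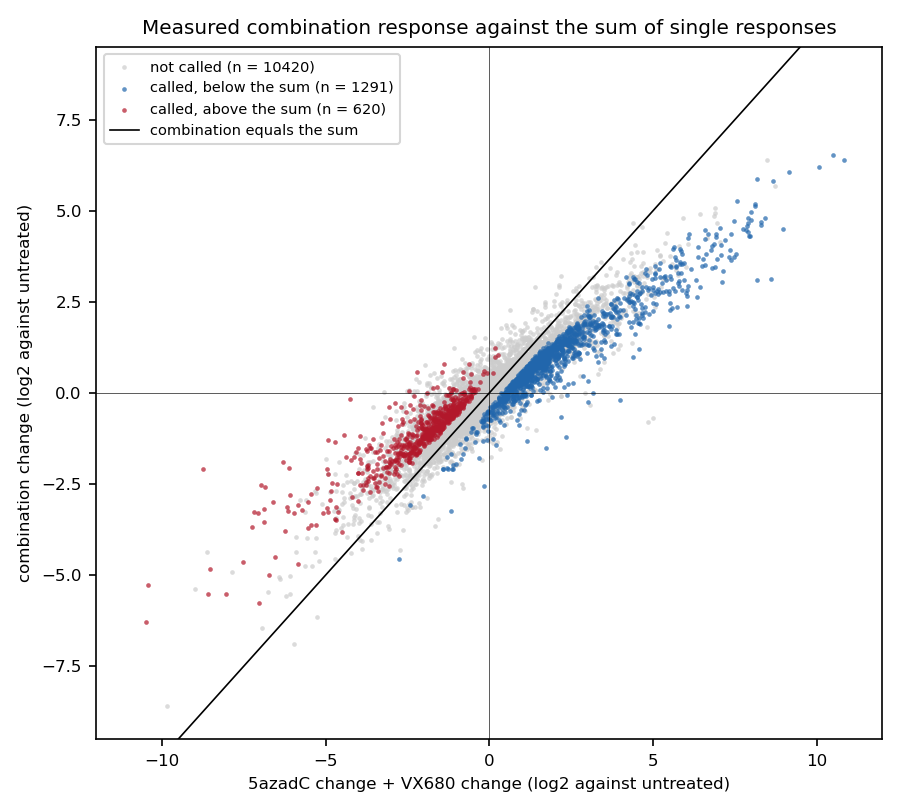
Each point is 1 of the 12331 genes with more than 3 reads in every group; the x axis is the log2 change with 5azadC plus that with VX680, the y axis is the log2 change with both drugs, all against the same untreated libraries, and the line marks equality. Called genes with a positive interaction (red, 620) lie above the line mostly on the left, where single changes were falls, and those with a negative interaction (blue, 1291) lie below it mostly on the right.

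With a response set at 1.5-fold, genes that both drugs moved the same way made up most calls. Of the 626 positive genes, 424 (67.7%) were down with each drug, against 10.6% of all genes. Of the 1341 negative genes, 819 (61.1%) were up with each drug, against 13.3% of all genes. At 2-fold these counts were 200 and 458. The largest class was then genes moved by neither drug, with 274 positive and 654 negative genes. In the 424 positive genes down with each drug at 1.5-fold, the median log2 changes were −1.16 with 5azadC, −1.16 with VX680 and −1.35 with both. In the 819 negative genes up with each drug they were 1.21, 1.23 and 1.41. These genes were chosen by their interaction, so a combined median near the single ones follows partly from that choice. Over all tested genes down with each drug, called or not, the medians were −1.01, −1.05 and −1.40. Over all those up with each drug they were 1.15, 1.27 and 1.53. A smaller combined response did not mean a level nearer to untreated: in 243 of the 424 genes the combination stood below both single drugs, in 99 between them and in 82 above both. Of the 819 genes, 471 stood above both single-drug levels, 246 between and 102 below both. Both combination libraries lay outside the range of the other 6 libraries in 162 positive and 481 negative genes (25.9% and 35.9%), against 28.3% of all genes tested.

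Other calls had 1 responding drug or none. There were 177 negative genes that were up with 5azadC only, and their level with both drugs lay between the single levels in 97 and below both in 70. Another 67 negative genes were up with VX680 only, and 21 others were down with VX680 only and stood lower with both drugs than with either. Of 252 negative genes in which neither drug reached 1.5-fold, 213 stood below both single-drug levels with the combination. Among positive genes, 68 were down with 5azadC only, 52 with VX680 only, and 80 with neither, of which 57 stood above both single-drug levels with the combination.

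**Figure D2:**
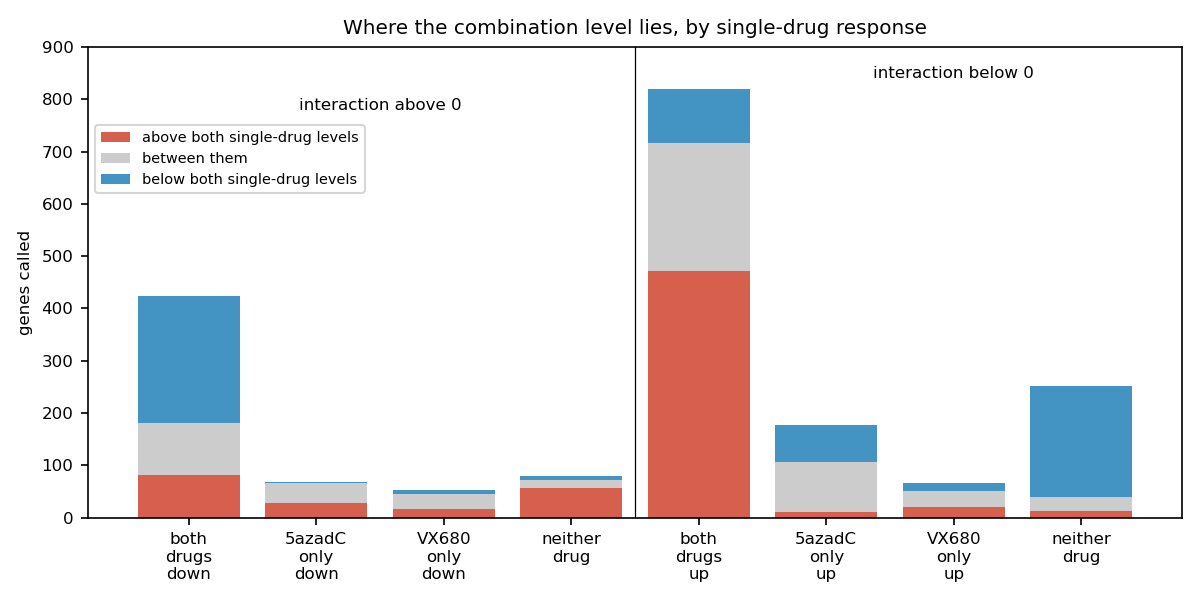
Bars count called genes by their single-drug response at 1.5-fold (x axis) and are split by where the level with both drugs lay relative to the single-drug levels. Positive interactions (left) were mostly genes down with both drugs (424) and negative ones (right) genes up with both (819); 2 positive and 26 negative genes of other classes are not drawn.

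How many negative calls were made again depended on the scale on which responses add. When additivity was instead set on CPM, with the level expected from both drugs equal to 5azadC plus VX680 minus untreated, 929 genes (7.35%) were called above that sum and 839 (6.64%) below it. Of the 626 genes with a positive log2 interaction, 594 were called above the CPM sum and none below; in 276 of them that sum was under 0 CPM, a level no gene can have. For a gene that both drugs lower, the product of the folds always lies above the CPM sum, so that direction was fixed by arithmetic there. Of the 1341 with a negative log2 interaction, 812 were called below the CPM sum, 2 above it and 527 in neither direction. For the 819 genes up with both drugs the split was 402 below, 2 above and 415 not called. The 2 genes called above the CPM sum were Acsbg1 and Krt19. Acsbg1, an acyl-CoA synthetase named after its values were seen, stood at 44.6 and 46.5 CPM with both drugs, against a sum of 25.2 CPM.

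Among the positive genes with the smallest p-values, most were lowered by each drug. Sema6a, a semaphorin, stood at 95.9 and 116 CPM in untreated cells, 8.58 and 8.91 with 5azadC, 21.5 and 16.0 with VX680, and 15.3 and 14.8 with both. All 6 treated libraries lay far below untreated, and the combination lay above 5azadC alone. Its interaction was 3.26 ± 0.25 (adjusted p = 2.47e-06). Dkk2, a Wnt modulator, went from 133 and 107 CPM to 14.7 and 21.0 with 5azadC, 24.9 and 28 with VX680, and 26.4 and 30.2 with both. The VX680 and combination values overlapped, and the interaction was 2.87 ± 0.24 (adjusted p = 5.24e-06). Bcl2l11, which encodes the pro-apoptotic protein Bim, fell from 81.1 and 85.5 CPM to 21.5 and 18.7 with 5azadC, 17.6 and 18.9 with VX680, and 23.9 and 23.0 with both. Each treated group was about equally low, with an interaction of 2.41 ± 0.19 (adjusted p = 3.11e-06). Vegfc, a lymphatic growth factor, and Zfp462, a zinc finger protein, followed this form with interactions of 2.01 ± 0.20 and 2.25 ± 0.18.

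Several of the largest positive interactions belonged to genes at a few CPM in every treated group. Sparcl1, a matricellular protein, stood at 69.5 and 75.3 CPM in untreated cells and between 1.93 and 4.39 CPM in all 6 treated libraries, with an interaction of 3.68 ± 0.39. Enpp2, the lysophosphatidic acid producing enzyme autotaxin, went from 24.8 and 17.6 CPM to 2.01 and 0.823 with 5azadC, 2.75 and 2.53 with VX680, and 3.37 and 3.73 with both (4.28 ± 0.55). Cd93, a membrane glycoprotein, went from 18.4 and 22 CPM to 1.34 and 1.78 with 5azadC and 4.50 and 5.11 with both (4.04 ± 0.44). For Enpp2 and Cd93 the combination was higher than 5azadC alone and did not differ from VX680 alone by the test. Adamts17, a secreted protease, was at 115 and 106 CPM untreated and at most 4.94 CPM in any treated library (4.19 ± 0.60); its call was lost without combination replicate 1 (adjusted p = 0.0653). Kif26a, Igsf9, Flywch2, Fgl2 and Sez6l2 had interactions between 3.28 and 3.91. Fgl2 lost its call with DESeq2 (adjusted p = 0.205) and without either untreated library, VX680 replicate 1 or combination replicate 1, and Sez6l2 without combination replicate 1 (adjusted p = 0.0972).

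Xist, the RNA that coats and silences the inactive X chromosome, was among the genes whose falls did not compound. It stood at 781 and 786 CPM in untreated cells, 405 and 426 with 5azadC, 357 and 378 with VX680, and 426 and 429 with both. Every treated library was lower than every untreated one, and the combination libraries lay at or above both single-drug groups. The interaction was 1.13 ± 0.12 (adjusted p = 3.22e-05). Of 18 listed regulators of X inactivation it was the only one called (5.56%, against 4.95% of all genes positive and 10.6% negative). The list's median interaction was 0.11.

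Sema3c, another semaphorin, had a positive interaction of a different form. It fell from 54.1 and 45.0 CPM to 23.6 and 18.1 with 5azadC, was at 40.7 and 46.3 with VX680, and rose to 73.3 and 74.5 with both. Both combination libraries lay above the other 6, and the combination exceeded untreated by 0.57, 5azadC by 1.81 and VX680 by 0.77 on the log2 scale, each past the test. The interaction was 2.01 ± 0.20 (adjusted p = 2.7e-05).

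**Figure D3:**
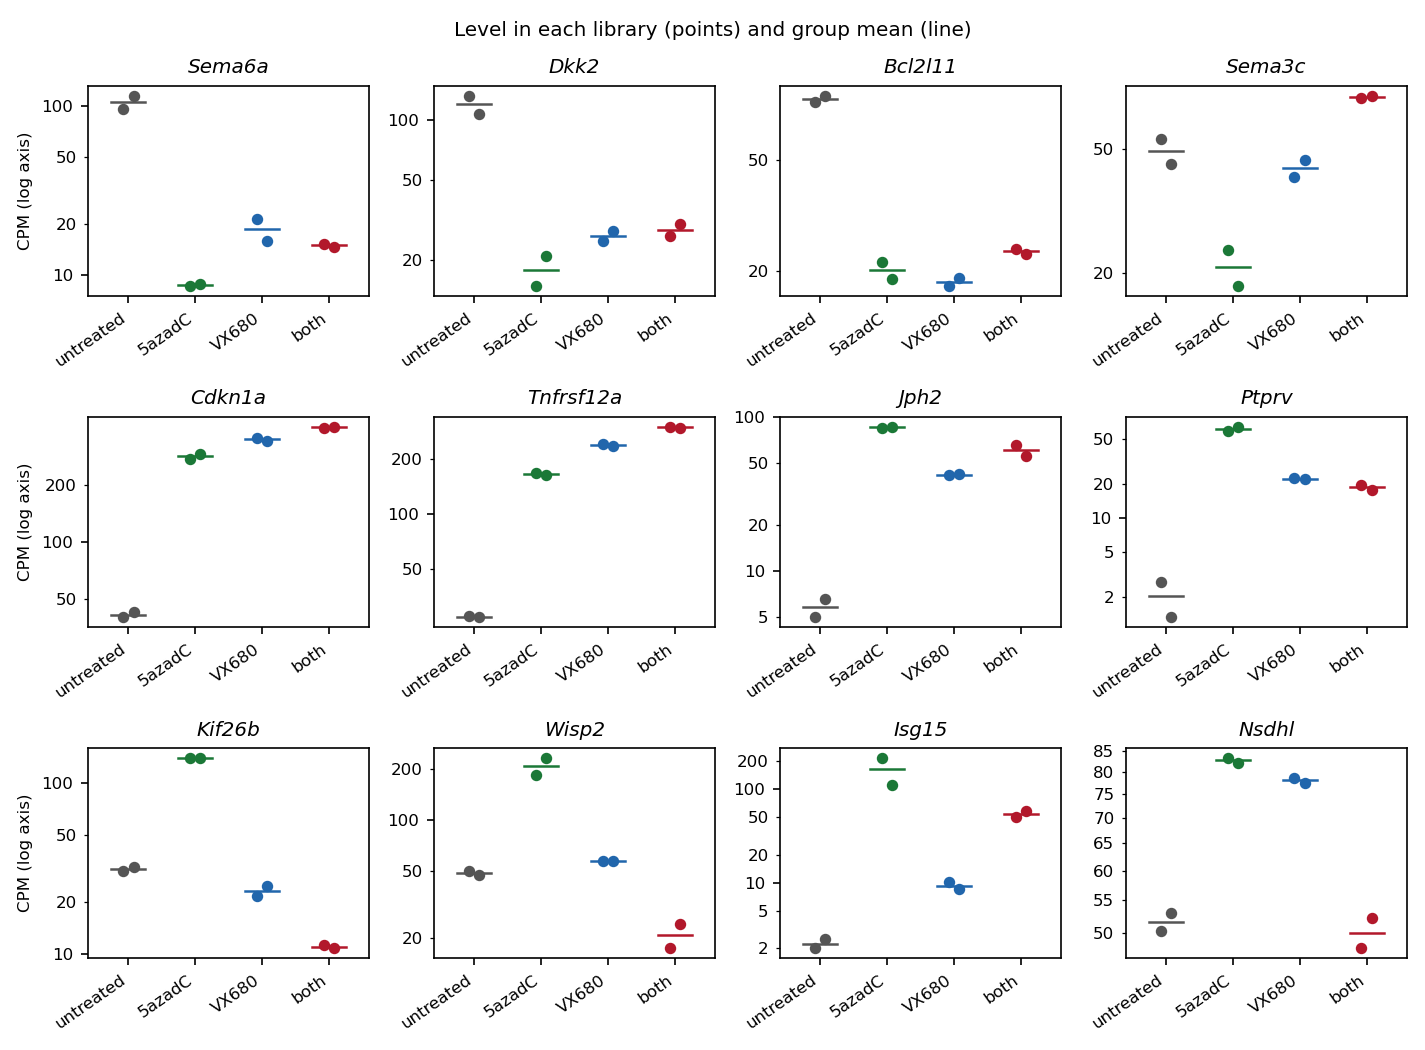
Level of 12 genes in each library (points; log axis of CPM, with its own range in each panel) and group mean (line). The top row has positive interactions (Sema6a, Dkk2, Bcl2l11, Sema3c) and the rest negative ones, in which the combination stood above both drugs (Cdkn1a, Tnfrsf12a), between them (Jph2, Isg15) or below both (Ptprv, Kif26b, Wisp2, Nsdhl).

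Targets of p53 rose with each drug and rose little further with both. Of 31 listed targets tested, 25 rose with 5azadC, 24 with VX680 and 25 with both (all genes: 22.6%, 23.8% and 28.4%), and the median log2 changes were 1.29, 1.22 and 1.39. The interaction was negative in 20 (64.5%) and positive in none, against 10.6% and 4.95% of all genes. Its median was −1.10, against −0.03 over all genes. Leaving out 1 library gave between 17 and 22 negative calls. Of the 20 negative targets, 18 were up at least 1.5-fold with each drug, a class in which 819 of 1679 genes tested were negative. Cdkn1a, the cell cycle inhibitor p21, stood at 40.0 and 42.5 CPM untreated, 274 and 293 with 5azadC, 356 and 341 with VX680, and 399.7 and 407 with both. The combination libraries were the highest of all 8, yet the product of the single folds would be 2396 CPM, and the interaction was −2.57 ± 0.13 (adjusted p = 1.94e-07). Ccng1, a cyclin of the p53 feedback loop, had 36.4 and 31.4 CPM untreated and between 213 and 341 CPM in the treated libraries, with an interaction of −2.33 ± 0.16. Phlda3, an inhibitor of Akt, and Btg2, an antiproliferative protein, had interactions of −1.71 ± 0.13 and −1.93 ± 0.17. On the CPM scale 12 of the 31 were called below the sum (6.64% of all genes). Mdm2, the ubiquitin ligase that degrades p53, was not one of them: with both drugs it had 403 and 400.2 CPM, against a CPM sum of 398 (this gene was picked out after its values were seen).

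Negative interactions with very small p-values also lay outside that list. Tnfrsf12a, the receptor of the cytokine TWEAK, rose from 27.8 and 27.3 CPM to 168 and 164 with 5azadC, 242 and 236 with VX680, and 303 and 299 with both (−2.26 ± 0.13). Jph2, a junctional membrane protein of muscle, rose from 4.99 and 6.60 CPM to 84.6 and 86.9 with 5azadC, 41.9 and 42.5 with VX680, and 66.2 and 56.2 with both (−3.38 ± 0.21). Its combination libraries lay between the single-drug groups without overlap. Ptprv, a receptor-type tyrosine phosphatase, rose from 2.72 and 1.32 CPM to 59.1 and 64.5 with 5azadC, 22.5 and 22 with VX680, and 19.5 and 17.8 with both. The combination was lower than 5azadC alone by 1.72 on the log2 scale and did not differ from VX680 alone by the test (adjusted p = 0.466). Ptprv had an interaction of −5.08 ± 0.32 (adjusted p = 3.41e-07).

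Most of the secreted inflammatory genes tested rose with each drug. Of 20 tested, 13 rose with 5azadC, 13 with VX680 and 14 with both (all genes: 22.6%, 23.8% and 28.4%), and 11 had a negative interaction (55%, against 10.6%). All 11 were up at least 1.5-fold with each drug, a class in which 819 of 1679 genes tested were negative. With both drugs 12 of the 20 stood above both single-drug levels, and 7 were above 5azadC alone past the test (9.98% of all genes). The summed level of the list, 1521 and 1517 CPM untreated, was not above that in any treated library (1105 to 1493 CPM). The chemokine gene Ccl2 stood at 5.44 and 6.01 CPM untreated, 54.3 and 37.0 with 5azadC, 39.7 and 37.3 with VX680, and 57.4 and 54.1 with both (−2.48 ± 0.26). Ptgs2, the inducible cyclooxygenase, had an interaction of −2.0 ± 0.20, and Hbegf, an epidermal growth factor receptor ligand, one of −1.88 ± 0.22. Hbegf reached 77.2 and 86.1 CPM with both drugs, which was 4.62 CPM above the CPM sum (adjusted p = 0.681), so its direction depended on the scale. The 2 positive members, outside the rule for named genes, were the chemokine Cxcl12 (1.14 ± 0.13) and the collagenase Mmp13 (4.08 ± 0.92), both lower with 5azadC.

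Interferon-stimulated genes rose strongly with 5azadC and stood lower when VX680 was given with it. Of 57 listed genes, 54 had enough reads to be tested, and 5 of these had a group with 0 reads. Members silent without 5azadC could enter the test only through groups given it, which favours rises. All 54 tested members rose with 5azadC, 18 rose with VX680 and 45 with both, and the median log2 changes were 4.16, 0.80 and 2.25. With both drugs the level lay between the single drugs in 52 of 54. It was below 5azadC alone past the test in 50 (14.8% of all genes were lower in that comparison, 9.98% higher) and above VX680 alone in 28 (2.45% of all genes higher, 4.05% lower). The interaction was negative in 45 (83.3%) and positive in none, against 10.6% and 4.95% of all genes. Its median was −2.63, also with the 5 members that had a group without reads set at their bound. Without VX680 replicate 1 the negative calls numbered 28, and they numbered between 31 and 49 without any other library. On the CPM scale 48 were called below the sum (6.64% of all genes).

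The 5azadC libraries differed from each other in this group, and both stood above the combination. The summed level of the listed genes was 705 and 677 CPM in untreated cells, 5499 and 2942 with 5azadC, 931 and 926 with VX680, and 1708 and 1807 with both. Leaving out 5azadC replicate 1, the higher one, gave 41 negative calls, and leaving out replicate 2 gave 49. Isg15, a ubiquitin-like modifier, had 1.99 and 2.49 CPM untreated, 217 and 111 with 5azadC, 10.1 and 8.52 with VX680, and 50.3 and 58.5 with both. The 4 groups did not overlap, and the combination lay 1.59 below 5azadC and 2.53 above VX680 on the log2 scale (interaction −3.69 ± 0.53, adjusted p = 0.000239). Ifit1, which binds foreign RNA ends, had 6.71 and 6.60 CPM untreated, 272 and 138 with 5azadC, 12.4 and 11.5 with VX680, and 54.3 and 58.2 with both (−2.71 ± 0.41). Bst2, a tether of budding virus, and Tap1, a peptide transporter of antigen presentation, had the same order of groups with interactions of −2.87 ± 0.31 and −2.51 ± 0.36. Zbp1, a sensor of Z-form nucleic acid, was at 42.9 and 14.1 CPM with 5azadC but at 4.22 and 3.86 with both, close to the 2.55 and 3.33 with VX680 (−5.48 ± 0.97). Oas3, which makes the activator of RNase L, had 0 reads in both untreated libraries, and its interaction was at most −4.34; its call was lost without VX680 replicate 1 (adjusted p = 0.113) and without untreated replicate 1 (0.0507).

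**Figure D4:**
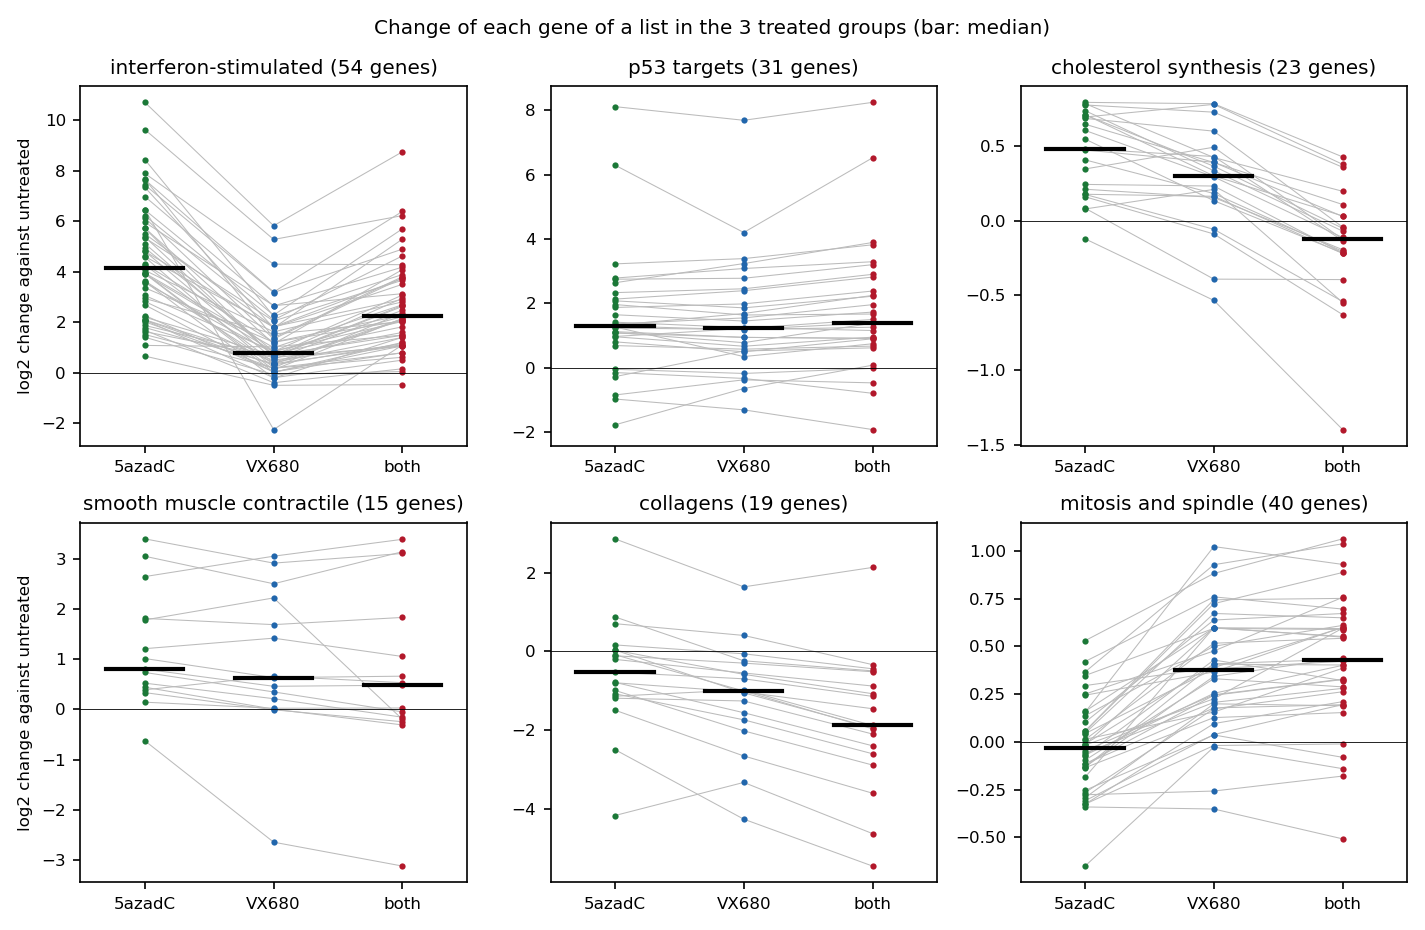
Log2 change against untreated for every tested gene of 6 lists with 5azadC, VX680 and both drugs (grey lines join a gene, the black bar is the median; axis ranges differ). Interferon-stimulated medians were 4.16, 0.80 and 2.25, cholesterol synthesis medians 0.48, 0.30 and −0.13, and mitosis medians −0.03, 0.38 and 0.43.

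Cholesterol synthesis genes were raised modestly by each drug and stood near or below the untreated level with both. Of 23 tested, 16 rose with 5azadC and 13 with VX680 and none fell, whereas with both drugs 2 rose and 4 fell (Insig1, Pmvk, Srebf2 and Tm7sf2; all genes: 28.4% rose and 27.3% fell). The median log2 changes were 0.48, 0.30 and −0.13. All 23 fitted levels were lower with both drugs than with either, past the test in 21 against 5azadC and 10 against VX680 (all genes: 14.8% and 4.05%). The interaction was negative in 18 (78.3%) and positive in none, against 10.6% and 4.95% of all genes, with a median of −0.93. Leaving out 1 library gave 16 to 19 negative calls. On the CPM scale 18 were also called below the sum (6.64% of all genes).

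Nsdhl, a sterol dehydrogenase encoded on the X chromosome, had 50.3 and 53.1 CPM untreated, 83.5 and 82.3 with 5azadC, 78.7 and 77.5 with VX680, and 47.8 and 52.3 with both. Its combination and untreated values overlapped, and the interaction was −1.33 ± 0.14 (adjusted p = 4.18e-05). Sqle, squalene epoxidase, had 141 and 131 CPM untreated, 229 and 216 with 5azadC, 179.6 and 171 with VX680, and 129 and 134 with both (−1.12 ± 0.13). Cyp51, the lanosterol demethylase, likewise had an interaction of −1.14 ± 0.13.

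Smooth muscle contractile genes had 12 negative interactions among 15 tested (80%) and none positive, against 10.6% and 4.95% of all genes. Of the 15, 13 rose with 5azadC, 10 with VX680 and 8 with both (all genes: 22.6%, 23.8% and 28.4%), while 3 fell with both (Cnn2, Myl9 and Mylk; 27.3% of all genes fell). The median log2 changes were 0.80, 0.63 and 0.48, and the median interaction was −0.98. Without VX680 replicate 1 there were 8 negative calls. Cnn1, calponin, had 5.98 and 4.40 CPM untreated, 53.4 and 59.0 with 5azadC, 40.8 and 39.4 with VX680, and 43.3 and 48.4 with both (−3.20 ± 0.22). Actg2, the enteric actin, reached between 164 and 186 CPM in all 6 treated libraries from 49.6 and 53.4 untreated (−1.67 ± 0.13). Acta2, the actin of myofibroblasts, had 967 and 1043 CPM untreated, 1477 and 1868 with 5azadC, 1303 and 1254 with VX680, and 975 and 968 with both, so that the combination lay −0.05 from untreated on the log2 scale (interaction −1.13 ± 0.15). Tpm1, a tropomyosin, had an interaction of −0.98 ± 0.12. Actb, the cytoskeletal actin often taken as a reference, was itself called (−0.65 ± 0.12): its 6 treated libraries lay between 6189 and 6606 CPM, against 3654 and 4082 untreated.

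For Kif26b and Wisp2, which 5azadC raised, the level with both drugs was lower than in untreated cells. Kif26b, a kinesin family member, stood at 30.6 and 32.4 CPM untreated, 140.1 and 141 with 5azadC, 21.9 and 24.9 with VX680, and 11.2 and 10.8 with both. Both combination libraries were the lowest of the 8, 3.67 below 5azadC and 1.08 below VX680 on the log2 scale, with an interaction of −3.24 ± 0.18 (adjusted p = 3.3e-07). Wisp2, a matricellular protein of the Ccn family, stood at 50 and 47.3 CPM untreated, 186 and 235 with 5azadC, 57.3 and 57.4 with VX680, and 17.4 and 24.4 with both (−3.56 ± 0.21). H19, an imprinted noncoding RNA, was at 1.63 and 2.79 CPM untreated, 4.12 and 4.39 with 5azadC, 7.76 and 9.85 with VX680, and 1.55 and 2.07 with both (−3.26 ± 0.55, adjusted p = 0.00129). Only its rise with VX680 passed the test, and its combination and untreated values overlapped. Of 22 imprinted genes tested, 3 had a negative interaction (H19, Dlk1 and Impact) and 3 a positive one (Plagl1, Cdkn1c and Grb10), or 13.6% each, against 10.6% and 4.95% of all genes. The negative ones numbered 1 without combination replicate 1 and 5 without 5azadC replicate 2. The positive ones numbered 5 without either 5azadC library, and 1 without untreated replicate 2 or any VX680 or combination library.

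Pdgfrb, a growth factor receptor of fibroblasts, was lower with both drugs than the single responses predict. It stood at 487 and 477 CPM untreated, 420.1 and 465 with 5azadC, 248 and 241 with VX680, and 118 and 111 with both (−0.97 ± 0.13, adjusted p = 0.000202). On the CPM scale its shortfall missed the threshold (adjusted p = 0.0628). Its relative Pdgfra went the other way: 342 and 305 CPM untreated, 69.1 and 105 with 5azadC, 52.8 and 44.6 with VX680, and 32.6 and 34.4 with both (1.35 ± 0.23). Of 11 fibroblast markers tested, Dcn was also positive and Thy1 and Vim negative. In all, 18.2% were positive and 27.3% negative, against 4.95% and 10.6% of all genes. Dcn was lost without combination replicate 2 (adjusted p = 0.059), and without 5azadC replicate 2 the positive markers numbered 5.

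Some genes that neither drug moved by 1.5-fold had a called interaction. Adm, the vasodilator peptide adrenomedullin, had 62.7 and 70.5 CPM untreated, 52.6 and 88.2 with 5azadC, 70.1 and 65.3 with VX680, and 27.0 and 28 with both. Only the combination libraries stood apart, by −1.27 from untreated (interaction −1.38 ± 0.26, adjusted p = 0.00316). Avpr1a, a vasopressin receptor, had between 12.8 and 21.5 CPM in the other 6 libraries and 5.62 and 7.04 with both (−1.64 ± 0.35, adjusted p = 0.00686). Both held in every log2-scale alternative. Tmem45a and Tmtc2, transmembrane proteins, also had negative interactions (−1.23 ± 0.32 and −1.49 ± 0.43), but these were lost without any 1 of 4 and of 6 libraries, respectively. Tmtc2 did not differ from untreated past the test with both drugs (adjusted p = 0.146). In the positive direction Cenpv, a centromere protein, had between 11.7 and 17.5 CPM in the other libraries and 29.0 and 21.0 with both (1.09 ± 0.27), a call lost without either VX680 library or combination replicate 1. Megf10, an engulfment receptor, had 28 and 22.2 CPM with both against 11 to 19.4 elsewhere (1.21 ± 0.30), with no called change against untreated (adjusted p = 0.105), a call lost without untreated replicate 1, either VX680 library or combination replicate 1.

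**Figure D5:**
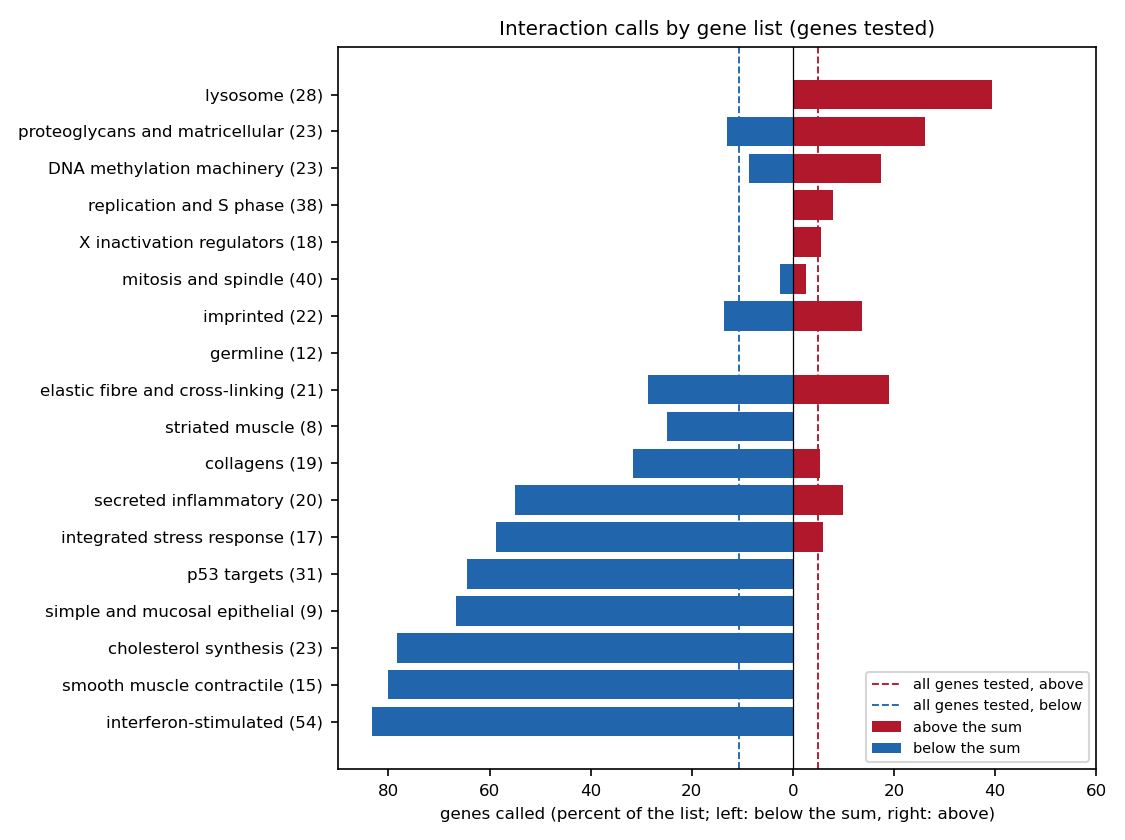
Share of the tested genes (number in brackets) of each pathway list, without the marker lists of cell types, with a negative interaction (blue, to the left) or a positive one (red, to the right); dashed lines mark the shares over all genes tested, 10.6% and 4.95%. Interferon-stimulated (83.3%), smooth muscle (80%) and cholesterol synthesis (78.3%) genes reach furthest to the left and, among the lists drawn, lysosome genes (39.3%) furthest to the right.

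Most collagen genes fell with VX680 and with both drugs, and 3 rose with 5azadC (Col5a3, Col12a1 and Col18a1). Of 19 collagen genes, 10 fell with 5azadC and 15 with VX680 (all genes: 19.6% and 22.4%), and 17 fell with both (27.3% of all genes). The median log2 changes were −0.53, −1.01 and −1.89. With both drugs 17 were lower than with 5azadC and 13 lower than with VX680 (all genes: 14.8% and 4.05%). The interaction was positive in 1 (5.26%) and negative in 6 (31.6%; all genes: 4.95% and 10.6%), with a median of −0.05. Col1a1, the main fibrillar collagen (named after its values were seen), fell by 0.99 with 5azadC, by 2.02 with VX680 and by 2.89 with both on the log2 scale, with an interaction of 0.13 ± 0.19 (adjusted p = 0.708). The positive member was Col11a1, at 188 and 183 CPM untreated, 6.13 and 14.9 with 5azadC, 17.6 and 19.3 with VX680, and 7.73 and 7.18 with both (2.87 ± 0.37). Without 5azadC replicate 2 the positive collagens numbered 9 and the negative ones 6. Among negative members, Col12a1 was at 641 and 874 CPM with 5azadC and at 281 and 304 with both, below the 392 and 436 of untreated cells (−1.13 ± 0.17). Col18a1, the source of endostatin, rose in every treated group with an interaction of −2.36 ± 0.25. On the CPM scale 7 collagens were called above the sum and 3 below (all genes: 7.35% and 6.64%).

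Proteoglycan, matricellular, elastic fibre and cross-linking genes had calls in both directions. Of 23 proteoglycan and matricellular genes, 6 were positive (26.1%) and 3 negative (13%), against 4.95% and 10.6% of all genes; without 5azadC replicate 1 the negative ones numbered 7. Vcan, the large proteoglycan versican, went from 1635 and 1386 CPM to 568 and 519.9 with 5azadC, 283 and 297 with VX680, and 234 and 242 with both (1.19 ± 0.14). The negative members were Ctgf, Cyr61 and Thbs1, of which Ctgf rose from 53.9 and 63.0 CPM to between 198 and 318 CPM in the 6 treated libraries (−2.16 ± 0.24). Of 21 elastic fibre and cross-linking genes, 4 were positive (19%: Fbln1, Lox, Ltbp4 and Mfap4) and 6 negative (28.6%). Fbln1, a fibulin, had an interaction of 1.24 ± 0.13, and Ltbp2, a latent TGF-beta binding protein, one of −2.35 ± 0.15. Loxl3, a lysyl oxidase, rose with 5azadC to 235 and 214 CPM from 103 and 104, and stood at 75.9 and 74.9 with both (−1.42 ± 0.13). Without VX680 replicate 1 the negative members numbered 2, without combination replicate 1 they numbered 3, and without untreated replicate 1 or VX680 replicate 2 they numbered 4. The positive members numbered 2 without VX680 replicate 2 or combination replicate 1.

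Lysosome genes were positive in 11 of 28 (39.3%) and negative in none (all genes: 4.95% and 10.6%), but this count rested on few libraries. The list had median log2 changes of −0.35, −0.33 and −0.40 and a median interaction of 0.30. Without VX680 replicates 1 and 2 the positive calls numbered 1 and 2, without combination replicates 1 and 2 they numbered 4 and 3, and without untreated replicates 1 and 2 they numbered 4 and 6. Man2b1, a lysosomal mannosidase, kept its call throughout: 184 and 191 CPM untreated, 82.3 and 84.3 with 5azadC, 107 and 98.4 with VX680, and 94.5 and 93.1 with both (1.04 ± 0.13). Gusb, beta-glucuronidase, stood at 92.2 and 92.5 CPM with both drugs, above all other libraries (54.7 to 71.2 CPM), with an interaction of 0.73 ± 0.17 that was lost without VX680 replicate 1 (adjusted p = 0.052).

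The integrated stress response list, whose genes serve amino acid supply and recovery from stalled translation, had 10 negative interactions and 1 positive (Aldh1l2) among 17 tested. These were 58.8% and 5.88%, against 10.6% and 4.95% of all genes. The list rose with 5azadC in 15, with VX680 in 11 and with both in 14 (all genes: 22.6%, 23.8% and 28.4%). The combination lay between the single drugs in 13. Psat1, an enzyme of serine synthesis, had 65.2 and 62.6 CPM untreated, 191 and 166 with 5azadC, 131 and 129.8 with VX680, and 166 and 180.5 with both (−1.07 ± 0.14). The transcription factor gene Atf3 stood at 0.997 and 1.76 CPM untreated and between 9.05 and 14.1 CPM in the treated libraries (−2.77 ± 0.41). The negative calls numbered 6 without untreated replicate 1 and likewise without either VX680 or either combination library, and Aldh1l2 was lost without either untreated or either combination library or VX680 replicate 1.

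Many genes of mitosis and the spindle rose with VX680, alone or together with 5azadC. Of 40 tested, 5 rose (Bub3, Cdc20, Espl1, Plk1 and Pttg1) and 4 fell (Bub1b, Ncaph, Nusap1 and Top2a) with 5azadC, 23 rose with VX680 and 29 with both (all genes: 22.6% rose and 19.6% fell with 5azadC, and 23.8% and 28.4% rose with VX680 and with both). With both drugs 29 were above 5azadC alone (9.98% of all genes were). None differed from VX680 alone past the test, where few of all genes did (2.45% higher and 4.05% lower). The median log2 changes were −0.03, 0.38 and 0.43. The interaction was called in 2, the positive Nusap1 (0.54 ± 0.14) and the negative Plk1 (−0.48 ± 0.14), a spindle protein and a mitotic kinase. This was 2.5% in each direction, against 4.95% positive and 10.6% negative over all genes. Nusap1 lost its call without untreated replicate 1 or any VX680 or combination library, and Plk1 without any untreated, VX680 or combination library. Without 5azadC replicate 1 there were 5 positive calls. Aurka, a target of VX680, had 92.8 and 79.4 CPM untreated, 101 and 91.2 with 5azadC, 173 and 179 with VX680, and 166 and 164 with both. Its interaction of −0.25 ± 0.14 was not past the threshold (adjusted p = 0.271), nor was that of Aurkb, another target (0.13 ± 0.15, adjusted p = 0.613). Replication genes had 3 positive interactions among 38 (7.89%: Pcna, Pole and Chaf1a) and none negative, against 4.95% and 10.6% of all genes. The positive ones numbered 0 without VX680 replicate 1 or combination replicate 2, and 1 without untreated replicate 1 or combination replicate 1. They numbered 6 and 5 without 5azadC replicates 1 and 2.

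Germline genes, many of them silenced by promoter methylation in somatic cells, answered to 5azadC with or without VX680. Of 29 listed, 12 had enough reads to be tested. Genes silent in untreated cells entered the test only through treated groups, which favours rises. Of the 12, 10 rose with 5azadC, 1 (Piwil2) with VX680 and 11 with both (all genes: 22.6%, 23.8% and 28.4%). With both drugs 9 were above VX680 alone (2.45% of all genes). With all 8 libraries no interaction was called by edgeR as fitted here or by DESeq2, and 2 had an unadjusted p under 0.05. There was 1 negative call without 5azadC replicate 2, 1 with no filter on low counts and 1 with limma at a pseudocount of 1. Levels were low: 6 of the 12 had a group with 0 reads, which leaves their interactions without a usable error. The Tex19.1 gene, named after its values were seen, had 0 reads untreated, 11.3 and 6.86 CPM with 5azadC, 0.196 and 0.133 with VX680, and 7.31 and 4.69 with both. Among 23 genes of the DNA methylation machinery, 4 interactions were positive (Dnmt3a, Tet1, Tet3 and Uhrf2) and 2 negative (Gadd45b and Gadd45g). These were 17.4% and 8.7%, against 4.95% and 10.6% of all genes. The positive ones numbered 0 without combination replicate 1, 1 without either VX680 library and 2 without untreated replicate 2. Gadd45g, a stress gene tied to demethylation, had 18.0 and 23.2 CPM untreated and between 56.1 and 85.3 CPM in the treated libraries (−1.77 ± 0.17). Gadd45b lost its call without any 1 library other than 5azadC replicate 2. Dnmt1, the maintenance methyltransferase that 5azadC traps, had between 572 and 720.4 CPM in every library and an interaction of −0.15 ± 0.12 (adjusted p = 0.453).

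Epithelial genes rose most with both drugs, and whether they did so beyond the single responses depended on the scale. Of 20 listed genes, 9 had enough reads to be tested, and 4 of these had a group with 0 reads. Genes silent in untreated cells entered the test only through treated groups, which favours rises. All 9 tested members stood above both single-drug levels with the combination, and all 9 rose against untreated. On the log2 scale 6 had a negative interaction (66.7%, against 10.6% of all genes), and without untreated replicate 1 there were 3. All 6 were up at least 1.5-fold with each drug, a class in which 819 of 1679 genes tested were negative. The list was chosen with earlier results of these data known, so this share is a description only. On the CPM scale none of the 9 was called below the sum and 1, Krt19, above it (all genes: 6.64% and 7.35%). Krt19, a keratin of simple epithelia, had 0.544 and 1.17 CPM untreated, 9.70 and 7.27 with 5azadC, 21.7 and 22 with VX680, and 45.0 and 49.4 with both. The log2 interaction was −2.30 ± 0.44, while the level was 17.6 CPM above the CPM sum (adjusted p = 0.0216). Krt13, Krt18 and the protease gene St14 had 0 reads in both untreated libraries, and their log2 interactions were at most −2.93, −2.50 and −3.72. Krt18 lost its call without any 1 library other than 5azadC replicate 2, and with limma at a pseudocount of 10 Krt13 (adjusted p = 0.112) and Krt18 (0.648) lost theirs. On the CPM scale they stood 1.63, 2.25 and 0.853 CPM above the sum, none past the threshold. Keratinocyte markers stayed at or under 3.08 CPM in sum in every library, and their part in this result was not tested.

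Some marker genes of other cell types were called (all genes: 4.95% positive and 10.6% negative). Of 5 endothelial markers tested, Flt1 and Eng were negative, and Eng was lost without any 1 of 5 libraries (adjusted p between 0.0542 and 0.152). Flt1 had 11.1 and 12.6 CPM untreated, 32.0 and 32.0 with 5azadC, 81.0 and 87.2 with VX680, and 71.0 and 62.2 with both (−1.78 ± 0.18). The endothelial sum ran from 126 to 143 CPM in untreated and from 176 to 233 CPM in treated libraries, with Emcn at 0. Of 6 chondrocyte markers, Col10a1 (−2.85 ± 0.30) and Col2a1 were negative and Sox9 positive, and the latter 2 were lost in several alternatives. Of 4 adipocyte markers, Cebpa and Lpl were positive, and each was lost without any 1 of 5 or more libraries. None of the 6 keratinocyte, leukocyte, skeletal muscle and melanocyte markers tested was called. Rn45s, the ribosomal precursor RNA, lay between 14531 and 22164 CPM in the other 6 libraries and at 33503 and 35544 with both (0.80 ± 0.19). Its call was lost without VX680 replicate 1 or combination replicate 2. Together, the noncoding RNAs Rn45s, Rmrp and Rpph1 took 7.16% and 7.25% of reads with both drugs, but also 7.13% in 5azadC replicate 2, against 4.06% in 5azadC replicate 1 and 4.46% to 5.86% in the other groups. The part of these RNAs in the other results was not tested.

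Total expression of X-linked genes was also tested. Of 404 X-linked genes tested, 16 (3.96%) were positive and 21 (5.2%) negative, against 4.95% and 10.6% of all genes. The positive ones numbered 34 without 5azadC replicate 2, and between 6 and 9 without any untreated, VX680 or combination library; the negative ones numbered 13 without VX680 replicate 1 and between 14 and 28 without any other library. Hprt, an X-linked housekeeping gene of purine salvage, had 6.89 and 5.42 CPM untreated and between 17.0 and 25.4 CPM in the 6 treated libraries (−1.32 ± 0.29). Pgk1, an X-linked glycolytic gene, was counted at 1.03 to 4.39 CPM and was not called (adjusted p = 0.441); it has near-identical copies in the genome, so its count is uncertain.

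Reads assigned to an allele gave a second, separate readout. Xist reads were mostly mus in every library (2386 mus and 174 cas in untreated replicate 1, 1430 and 147 in replicate 2). The mus share of the other 277 X-linked genes, pooled, was 4.01% and 4.05% in untreated cells. It was 5.26% and 4.89% with 5azadC, 4.84% and 4.96% with VX680, and 5.74% and 5.80% with both. The combination libraries were the highest of the 8, and every treated library was above both untreated ones. The 95% exact binomial intervals, which cover counting error only, ran from 3.82% to 4.28% untreated, from 4.63% to 5.5% with 1 drug and from 5.46% to 6.08% with both. Adding the mean single rises would give a share 0.181 percentage points higher than the mean of 5.77% measured with both, a gap smaller than the 0.265 SD between the 5azadC libraries. The median over these genes was 0% in every group, so the pooled share came from a minority of them. A pooled share also moves with the level of each gene. Bgn, at 0.578% and 0.788% mus untreated, fell from 4496 and 3298 allelic reads to 769 and 733 with both drugs. The part of such shifts in the pooled rise was not tested. Over 278 X-linked genes, the median log2 change in mus to cas ratio was 0.064 with 5azadC, 0.099 with VX680 and 0.134 with both. In the edgeR test this ratio rose past the threshold in 3 of them with 5azadC, 2 with VX680 and 2 with both. It fell in 1, Xist, with 5azadC and with both drugs. Xist had 807 mus and 236 cas reads, and 682 and 173, with 5azadC, and 699 and 157, and 851 and 109, with both.

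No X-linked gene departed from additivity in its mus to cas ratio past the threshold, but many could hardly have shown a departure. Genes entered by their reads on both alleles together, and the median mus share over X-linked genes other than Xist was 0% in every group. Of 278 X-linked genes tested, 0 (0%) were called by edgeR, and 16 had an unadjusted p under 0.05 (5.76%, against 5.44% of the other genes); over all 10301 genes 5 (0.0485%) were called. Without 5azadC replicate 2, and likewise without combination replicate 1, there were 2 X-linked calls, and with a replicate block 1. Msn, which encodes the membrane linker moesin, came nearest, with an interaction of −3.77 ± 0.82 in log2 ratio (adjusted p = 0.0687). Its mus share was 0.163% and 0% untreated, 8.87% and 3.54% with 5azadC, 1.08% and 1.16% with VX680, and 4.58% and 3.95% with both. The untreated values rest on 1 mus read. Mid1, a microtubule-associated ubiquitin ligase, had mus shares of 3.05% and 1.84% untreated, 18.0% and 5.96% with 5azadC, 7.12% and 9.42% with VX680, and 8.85% and 8.92% with both (adjusted p = 0.305). Bgn, Flna, Cdk16 and Lamp2 had adjusted p-values between 0.686 and 0.688.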

How the data were processed

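RNA-seq of 8 libraries was analysed. Per the labels, libraries were strand-marked. The submitters' processing notes name TopHat2 2.0.10, HOMER 4.8, edgeR and build mm9, without roles. The authors deposited raw read counts per gene (both alleles together), and raw counts of reads assigned to the mus or cas allele. Their deposited normalized signal equals the raw counts times 1 factor per library; how the factors were made is not given in the sources used here. The deposited length column, another quantity, was not tested. Coordinates and promoter sequences were not used here, because no reference of that build was at hand; the planned search of promoter letters was therefore not run.

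Composite counts were tested with edgeR 4.0.16 (R 4.3.3): filterByExpr, TMM, 1 mean per group over all 8 libraries, quasi-likelihood F tests and Benjamini-Hochberg adjustment over the 12643 genes. Alternatives were RLE size factors, no filter, DESeq2 1.42.0, limma 3.58.1 on the log2 of the authors' signal plus 1 or 10, a replicate block, each library left out in turn, and additivity on CPM (delta-method errors). A group with 0 reads was set at 3 reads over the group and its interaction given as a bound; with 1 to 3 reads no fitted value is given. Allelic ratios were tested in edgeR with a term per library, in the 10301 genes that averaged 10 or more such reads a library. In simulated counts, interactions of 1 and 2 on the log2 scale were each planted in 100 genes above a minimum mean count. They were found in 60% and 94% of these, and 0.162% of unchanged genes were called. The simulation gave all groups the same spread per gene, unlike the data, where the 5azadC replicates stood furthest apart. These rates therefore do not cover genes with few reads or that wider spread. The labels do not say whether replicate numbers pair libraries. Correlations of replicate deviations lay between −0.19 and 0.111, which cannot settle it. Members and gene lists were chosen with earlier results of these data known, so the shares called in a list are descriptions and not independent support. Named genes were the 10 largest called interactions in each direction (mean log2 CPM of at least 1), the 6 smallest p in each, up to 4 called genes per list, the 4 largest in each direction among genes that neither drug moved 1.5-fold, 7 fixed genes (Aurka, Aurkb, Dnmt1, Cdkn1a, Xist, Hprt and Pgk1) and 6 X-linked genes in the allelic test; those outside the rule are marked. The authors' tables of single-allele comparisons were not used here. A few genes that this rule names are not reported here.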

Additional observations from a re-analysis of the deposited data

How the results depend on the processing

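The number of interaction calls varied with the libraries. Leaving out 1 library gave 233 to 1053 positive and 715 to 1668 negative calls, with fewer libraries in the fit. Additivity on CPM gave 839 calls below the sum, and the negative genes Acsbg1 and Krt19 were called above it. At 2-fold in place of 1.5-fold, 458 negative genes were up with both drugs, 200 positive genes down with both, and 654 negative and 274 positive genes moved with neither. With a replicate block there were 567 positive and 1251 negative calls, and 1 X-linked allelic call. Whether the replicate numbers pair libraries is not known. Leaving out 1 library gave 0 to 2 X-linked and 4 to 9 other allelic calls. The mus share as a median over X-linked genes was 0% in all 4 groups. On CPM the value turned above the sum, in CPM, for Krt18 (2.25), Tnnt2 (3.31), Krt13 (1.63), St14 (0.853), Krt19 (17.6) and Hbegf (4.62). Of 108 named and called genes, 73 were called in every log2-scale alternative. With 2 libraries a group, the precision is limited, and genes with few untreated reads have wide errors.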

Other observations

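Outside the X chromosome, 5 genes had a called interaction in the mus to cas ratio (edgeR, adjusted over 10301 genes). Hmgn1, a nucleosome-binding protein, had mus shares of 32.9% and 14.9% untreated, 18.2% and 14% with 5azadC, 18.9% and 17.0% with VX680, and 31.1% and 35.1% with both, on 316 to 657 allelic reads a library. Spp1, the secreted phosphoprotein osteopontin, had 25% and 15% untreated on 96 and 40 allelic reads, 40.5% and 39.1% with 5azadC, 47.9% and 49.1% with VX680, and 40.5% and 43.5% with both. The other 3 were the histone genes Hist1h2bf, Hist1h2bh and Hist1h4i. Replicates of a treated group disagreed widely in them: Hist1h4i had 2.6% and 40.0% mus reads with 5azadC and 49.0% and 3.0% with VX680. Histone genes of a cluster are nearly identical copies of each other, so reads may be split between them and these 3 values are uncertain. The call of Hmgn1 is uncertain too, because its untreated libraries stood far apart and untreated replicate 1 lay within the range of the combination.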
